A study of Zea mays with 18 samples.

Results

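Transcripts of 4 genes of the unfolded protein response of the endoplasmic reticulum (ER) were examined in leaves of a maize hybrid under heat. They are bZIP60 (GRMZM2G025812), the lumenal binding protein genes bip1 (GRMZM2G114793) and bip2 (GRMZM2G415007), and the protein disulfide isomerase gene pdi1 (GRMZM2G091481). They were taken by gene ID from the 39471 genes of the deposited table, with no measured value in the rule, and all 4 were among the 20621 genes tested. RefSeq names pair the IDs with bip1, bip2 and PDIL1-1 (pdi), whereas the name bZIP60 for GRMZM2G025812 comes from the selection itself. The hybrid is An'nong 591, the F1 of the maternal line CB25 and the paternal line CM1, and both groups carry this genotype. F1 denotes heat-treated hybrid seedlings (42 °C by day and 35 °C by night, 2 d) and CF1 control hybrid seedlings (28 °C and 23 °C), with RNA from the third leaf in 3 libraries per group. The series also holds libraries of both parental lines, 18 libraries in 6 groups in all, but the parental columns could not be matched to sample labels and were not used here. A single time point was sampled. Each library mixes the cell types of the third leaf, so fewer cells of a type and less RNA per cell cannot be told apart.

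Secretory and membrane proteins fold in the ER lumen, where BiP, an HSP70-type chaperone, binds unfolded chains and protein disulfide isomerases form and rearrange disulfide bonds. When unfolded proteins accumulate, plants raise the genes of this machinery through membrane-bound transcription factors. In Arabidopsis and maize, the kinase and ribonuclease IRE1 splices the bZIP60 mRNA so that an active factor is made, whereas bZIP17 is released from its membrane anchor by proteases. Counts per gene do not separate spliced from unspliced bZIP60 mRNA, so the values below are those of all bZIP60 transcripts.

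The libraries held 14325790 to 14643512 gene counts in F1 and 12266758 to 14246363 in CF1. The 100 genes with the most counts took 18.04% to 19.44% of the counts in F1 and 38.25% to 41.35% in CF1. FPKM (fragments scaled by exon length and library size) is relative to the library total and therefore moves with this difference. The fold changes below were computed by edgeR's quasi-likelihood test on counts with TMM factors, which scale the libraries to each other. Calls required an FDR no higher than 0.05 and a 2-fold difference or more. When libraries were scaled by their totals instead, the median log2 fold change of all tested genes was 0.85 in place of 0.05, and 83.0% in place of 54.7% of the called genes were higher in F1. As a check of the tissue, 12 leaf genes (those of C4 enzymes, of the Rubisco small subunit and of chlorophyll-binding proteins) were all expressed, with a summed FPKM of 7902 to 9448 in F1 and 43480 to 51440 in CF1. Of 25 endosperm zein genes, 23 had 0 counts in every F1 library and all 25 in every CF1 library. The part of the leaf gene and scaling differences in the results below was not tested.

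All 4 genes rose under heat, bip1 the most and bZIP60 the least. The fitted fold changes were 22.7 for bip1, 8.96 for bip2, 4.48 for pdi1 and 2.65 for bZIP60. Scaled by library totals, the log2 fold changes were 5.30 for bip1, 3.96 for bip2, 2.96 for pdi1 and 2.20 for bZIP60, each more than 1.5 times larger as a fold change. Among all tested genes, 24.1% were called higher in F1, 19.9% were called lower and 44% were called in either direction. In TMM-scaled FPKM, F1 lay entirely above CF1 for each of the 4 genes, as for 39.1% of all tested genes. In FPKM as deposited, which is given per library below, this held for 64.3% of all tested genes, so separate groups on that scale do not set these genes apart. Both BiP genes also stand in a heat response list that the study drew from genes it had already called in these libraries, so their calls are not independent of that choice.

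bZIP60, the transcription factor, had an FPKM of 36.1, 35.7 and 40.1 in the F1 libraries, against 7.47, 8.91 and 7.94 in the CF1 libraries. All F1 values were above all CF1 values, as for most tested genes on this scale, and the replicates of a group lay close together, with a coefficient of variation of 6.58% in F1 and 9.06% in CF1. These values rest on 870 to 957 counts in F1 and 162 to 196 in CF1, over an exonic length of 1664 bases. The log2 fold change was 1.41 ± 0.12 (SE), with an adjusted p of 2.89e-06 by edgeR's quasi-likelihood test. This rise was larger than that of 82.1% of the tested genes, and it was the only one of the 4 below 4-fold.

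bip1, which encodes a BiP chaperone, had an FPKM of 360.0, 311 and 406 in the F1 libraries, against 9.97, 7.85 and 9.53 in the CF1 libraries. Every F1 library was above every CF1 library, as for most tested genes on this scale, and by a wide margin. The counts were 10729 to 13691 in F1 and 244 to 334 in CF1 on 2352 bases of exon. The mean FPKM was 359 ± 47.4 in F1 and 9.12 ± 1.12 in CF1 (SD, n = 3 each), a ratio of 39.4 on the deposited scale. After TMM scaling the log2 fold change was 4.50 ± 0.17 (SE), with an adjusted p of 2.89e-08 by edgeR's quasi-likelihood test, the 388th largest of all tested genes. The mean FPKM of GRMZM2G114793 ranked 129th among the tested genes in F1 and 7466th in CF1, so that a transcript of moderate level in control leaves was among the most abundant under heat.

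bip2, the gene of a second BiP protein, had an FPKM of 68.9, 69.7 and 75.8 in the F1 libraries, against 4.56, 5.26 and 3.94 in the CF1 libraries. Again the groups did not overlap, as for most tested genes on this scale. The replicates varied less in F1 (coefficient of variation 5.28%) than in CF1 (14.4%), where the counts were between 117 and 168. The F1 libraries had between 2426 and 2626 counts on 2418 bases of exon. The log2 fold change was 3.16 ± 0.13 (SE), with an adjusted p of 3.45e-08 by edgeR's quasi-likelihood test, larger than that of 95.6% of the tested genes. The BiP genes encode similar proteins, and how reads that fit both genes were counted is not given in the sources used here, so the split between them is uncertain.

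pdi1 (PDIL1-1), a disulfide isomerase gene, had an FPKM of 103, 101 and 113 in the F1 libraries, against 14.0, 12.5 and 14.2 in the CF1 libraries. The groups did not overlap, as for most tested genes on this scale. The counts were 3331 to 3638 in F1 and 371 to 446 in CF1 on 2242 bases of exon. The log2 fold change was 2.16 ± 0.12 (SE), with an adjusted p of 1.67e-07 by edgeR's quasi-likelihood test. It was larger than that of 90.3% of the tested genes.

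**Figure D1:**
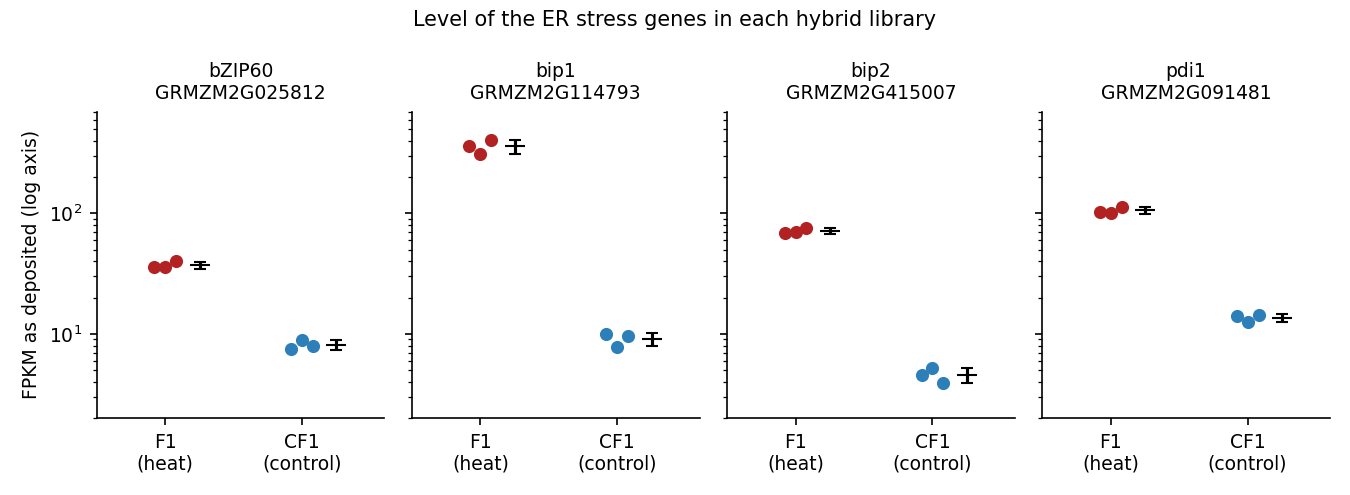
FPKM as deposited (log axis) of bZIP60, bip1, bip2 and pdi1 in the 3 F1 (heat, red) and 3 CF1 (control, blue) libraries, with the mean and SD beside the points. No F1 value overlaps a CF1 value in any panel, as for 64.3% of all tested genes on this scale, and bip1 has the widest gap of the 4, with 311 to 406 in F1 and 7.85 to 9.97 in CF1.

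The order of the transcripts differed between the groups. In F1, bip1 was highest (FPKM 311 to 406), followed by pdi1 (101 to 113), bip2 (68.9 to 75.8) and bZIP60 (35.7 to 40.1), and no neighbours in that order overlapped. In CF1, pdi1 was highest (12.5 to 14.2) and bip2 lowest (3.94 to 5.26), whereas the ranges of bip1 (7.85 to 9.97) and bZIP60 (7.47 to 8.91) overlapped. Together, the 4 genes took 0.132 ± 0.0137% of the counts of a library in F1 and 0.00765 ± 0.000212% in CF1 (SD, n = 3 each). The BiP genes made up most of that share in F1, 0.102 ± 0.0119% of all counts, and 0.00325 ± 0.000171% in CF1.

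**Figure D2:**
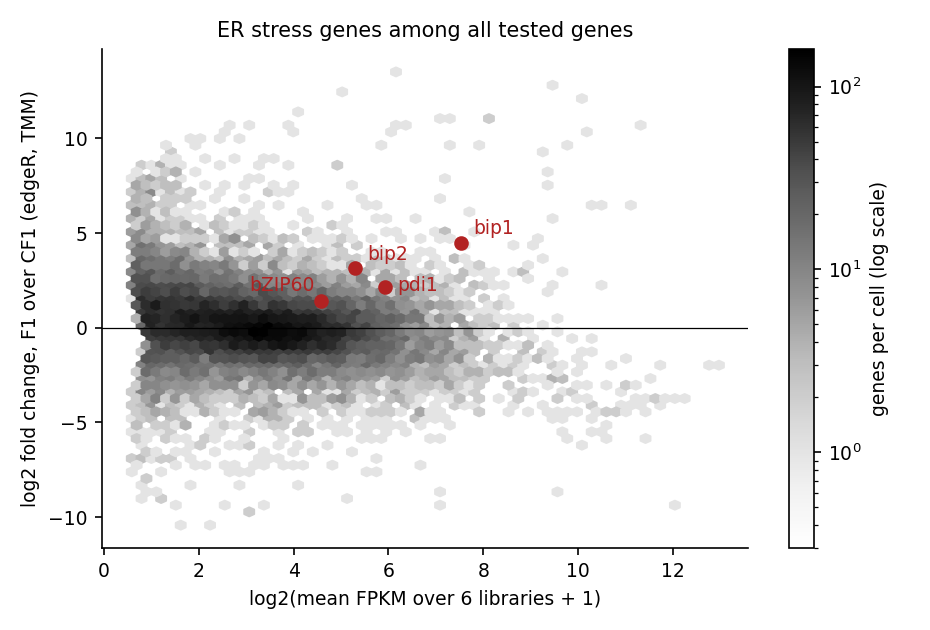
Log2 fold change of F1 over CF1 (edgeR with TMM factors) against log2(mean FPKM over 6 libraries + 1) for the 20621 tested genes, shaded by the number of genes per cell on a log scale, with the 4 ER genes in red. bip1 lies highest at 4.50, and bZIP60 lies closest to the bulk of genes at 1.41.

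Ratios of genes within a library do not depend on the scaling between libraries, and they showed that the 4 transcripts changed by unequal amounts. Relative to pdi1, the log2 level of bip1 was 1.81, 1.62 and 1.84 in F1, against -0.49, -0.67 and -0.58 in CF1. The sign turned in every library, so that bip1 was above pdi1 in all F1 libraries and below it in all CF1 libraries. The difference of 2.34 on the log2 scale is a 5.05-fold larger increase of bip1 than of pdi1. For bip2 the log2 ratio to pdi1 was -0.57, -0.54 and -0.58 in F1, against -1.61, -1.25 and -1.86 in CF1, a difference of 1.01. For bZIP60 it was -1.51, -1.51 and -1.50 in F1, against -0.90, -0.49 and -0.84 in CF1, a difference of -0.76, so that bZIP60 increased less than pdi1. The groups were separate for each of the 3 ratios. Separate groups were common among all genes, however. In TMM-scaled FPKM, F1 lay entirely above CF1 for 8065 of the 20621 tested genes and entirely below for 7439. The share of all tested genes with a separate ratio to pdi1 was not computed. An exact two-sided permutation test gave p = 0.1 for each of the 3 ratios (adjusted p = 0.1, Benjamini-Hochberg), the smallest p that 3 libraries against 3 allow.

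Within BiP, bip1 took a larger share under heat. It made up 83.9%, 81.7% and 84.3% of the summed BiP FPKM in the F1 libraries, against 68.6%, 59.9% and 70.8% in the CF1 libraries. The means were 83.3 ± 1.39% in F1 and 66.4 ± 5.76% in CF1 (SD, n = 3 each), and the difference of 16.9 percentage points was larger than the spread of either group (p = 0.1 by an exact permutation test on both sides, again the lowest reachable). The lowest control share was that of CF1 replicate 2, and without it the difference was 13.6 percentage points. In counts, the lowest bip1 share in F1 was 81.3% of 13197 BiP counts (95% Wilson interval 80.6% to 82.0%). In CF1 it was 59.2% of 412 counts in replicate 2 (54.4% to 63.9%) and at most 70.2% of 392 counts, in replicate 3 (65.4% to 74.5%), and the upper bound of each CF1 library lay below the lowest F1 share. These intervals cover counting error only.

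**Figure D3:**
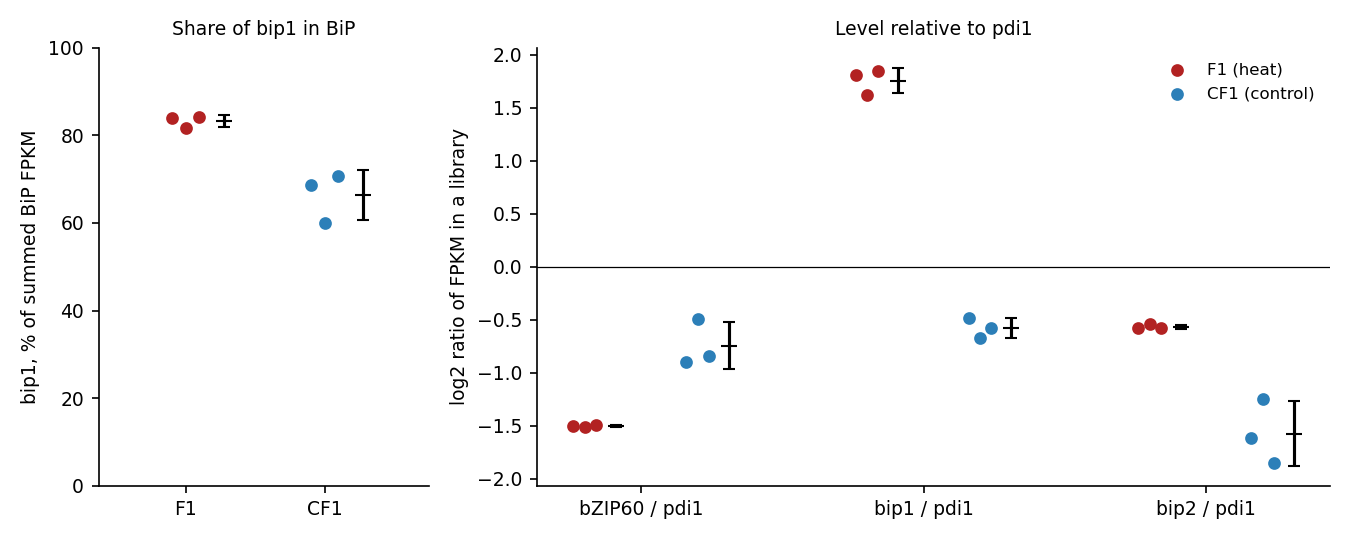
Left, share of bip1 in the summed FPKM of bip1 and bip2 (%), and right, log2 ratio of the FPKM of bZIP60, bip1 and bip2 to that of pdi1 in the same library, for 3 F1 (red) and 3 CF1 (blue) libraries with the mean and SD beside the points. The bip1 to pdi1 ratio is above 0 in F1 and below 0 in CF1, and the bZIP60 ratio is lower in F1.

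To place the 4 genes in their pathway, genes of ER protein folding were listed by RefSeq name. The list held 25 gene IDs including the 4, and 24 of them were tested. The PDI family makes up 15 of the tested IDs, and PDIL1-4, PDIL5-1 and PDIL5-3 each stand under 2 IDs. Of these 24, 15 were called higher in F1 (62.5%, against 24.1% of all tested genes) and 3 lower (12.5%, against 19.9%). The other 6 were not called, 4 of which passed the FDR threshold with a smaller fold change. The median log2 fold change was 1.39, against 0.05 over all tested genes. Without the 4 genes, 11 of 20 were called higher (55.0%) and 3 lower (15.0%), with a median of 1.08. Scaled by library totals, 18 of the 24 were called higher and none lower, against 45% of all tested genes called higher and 9.21% lower, and the median was 2.19 against 0.85 over all tested genes.

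The lectin chaperones, which hold glycoproteins in the ER until they are folded, also rose. The gene with the symbol CNX (GRMZM2G022180), the usual one for calnexin, had an FPKM of 142, 132 and 149 in F1, against 13.9, 14.4 and 11.6 in CF1. Its log2 fold change was 2.61 ± 0.12 (SE), with an adjusted p of 6.81e-08 by edgeR's quasi-likelihood test. The calreticulin gene crt2 (GRMZM2G358059) had an FPKM of 98.8, 98.6 and 131 in F1, against 13.5, 11.5 and 15.2 in CF1, a log2 fold change of 2.23 ± 0.17 (SE), with an adjusted p of 1.32e-06 by the same edgeR test. Neither gene's groups overlapped in deposited FPKM, as for 64.3% of all tested genes. In CF1 both ranges overlapped that of pdi1, and in F1 CNX lay above pdi1 in all libraries.

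The second transcription factor of the list fell. bZIP17 (GRMZM2G103647) had an FPKM of 51.5, 70.8 and 51.4 in F1, against 126, 119 and 89.6 in CF1. It was the more abundant of the listed factors in both groups, but the mean level of bZIP17 was 1.55 times that of bZIP60 in F1 and 13.8 times in CF1. Its log2 fold change was -1.74 ± 0.16 (SE), with an adjusted p of 6.19e-06 by edgeR's quasi-likelihood test. With library totals it was -0.94, still lower in F1 but under the fold change threshold.

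The disulfide isomerases were divided. Of 15 tested gene IDs of the PDI family, 8 were called higher in F1 (53.3%, against 24.1% of all tested genes), 2 lower (13.3%, against 19.9%) and 5 were not called, with a median log2 fold change of 1.07. Without pdi1, 7 of 14 were called higher (50.0%) and 2 lower (14.3%), with a median of 0.88. Neither lower call held with library totals. The largest rise was that of PDIL2-3 (GRMZM2G389173), whose counterpart in rice is a P5-type enzyme. It had an FPKM of 176, 186 and 181 in F1, against 7.88, 9.26 and 10.7 in CF1, and its log2 fold change was 3.49 ± 0.14 (SE), with an adjusted p of 3.95e-08 by edgeR's quasi-likelihood test. This was above that of pdi1, and PDIL2-3 was higher than pdi1 in all F1 libraries and lower in all CF1 libraries. The lowest log2 fold change was that of PDIL1-2 (GRMZM2G163421), -1.67 ± 0.21 (SE), with an adjusted p of 5.43e-05 by the same edgeR test, with an FPKM of 1.97, 2.46 and 2.97 in F1, against 4.61, 4.0 and 4.96 in CF1. With library totals it was -0.87 and no longer called.

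2 gene IDs that RefSeq pairs with a single gene, PDIL1-4, moved in opposite directions. GRMZM2G033829 had an FPKM of 13.9, 15.8 and 14.7 in F1, against 1.43, 1.14 and 1.73 in CF1, a log2 fold change of 2.57 ± 0.17 (SE), with an adjusted p of 6.52e-07 by edgeR's quasi-likelihood test. GRMZM2G034143 had an FPKM of 9.62, 9.75 and 9.43 in F1, against 11.4, 11.4 and 11 in CF1, a log2 fold change of -1.03 ± 0.11 (SE), with an adjusted p of 1.36e-05 by the same edgeR test. The second value was just past the threshold. It was -0.23 with library totals, -1.0 without the filter on low values and -0.94 by limma, and was called by none of these.

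The make-up of the PDI transcripts also differed between the groups. PDIL2-3 took 34.8 ± 0.759% of the summed PDI FPKM in F1 and 8.67 ± 1.84% in CF1, and pdi1 took 20.4 ± 1.77% in F1 and 12.6 ± 1.08% in CF1 (SD, n = 3 each). Together they reached 52.4% to 57.1% in F1 and 18.7% to 24.2% in CF1. The summed PDI FPKM was 520.5 ± 25.9 in F1 and 108 ± 7.80 in CF1, and that of the BiP genes 431 ± 50.5 in F1 and 13.7 ± 0.738 in CF1 (SD, n = 3 each). The ratio of the group means was 4.82 for the PDI genes and 31.4 for the BiP genes in deposited FPKM, which moves with the library totals, and 2.77 and 18.1 in TMM-scaled FPKM. These shares are descriptions and were not tested.

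**Figure D4:**
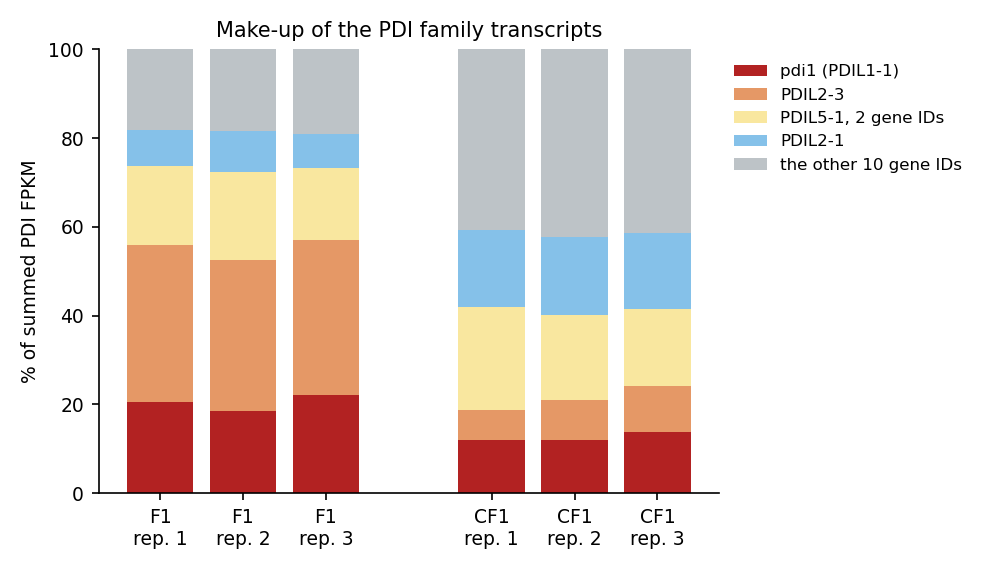
Share of the summed FPKM of 15 PDI gene IDs (%) in each F1 (heat) and CF1 (control) library, with pdi1, PDIL2-3, PDIL5-1 and PDIL2-1 shown apart. pdi1 and PDIL2-3 together fill 52.4% to 57.1% of each F1 bar and 18.7% to 24.2% of each CF1 bar.

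Derlins, membrane proteins through which misfolded proteins leave the ER for degradation, were also divided. The log2 fold change was 1.47 for derlin2 (GRMZM2G082976, SE 0.20, adjusted p = 9.63e-05) and 1.08 for derlin1 (GRMZM2G117388, SE 0.11, adjusted p = 8.70e-06), both called higher by edgeR's quasi-likelihood test. derlin2 was a low transcript, with an FPKM of 5.78 to 6.31 in F1 and 1.13 to 1.49 in CF1, and derlin1 had 30.9 to 36.9 in F1 and 8.53 to 9.83 in CF1. derlin4 (GRMZM2G112609) was not called, with an FPKM of 36.2 to 43.8 in F1 and 22.6 to 30.5 in CF1 and a log2 fold change of -0.23 ± 0.12 (SE), with an adjusted p of 0.115 by the same edgeR test. Its direction depended on the scaling, since its log2 fold change was 0.56 with library totals. A second gene ID paired with derlin2 had at most 4 counts per library and was not tested.

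**Figure D5:**
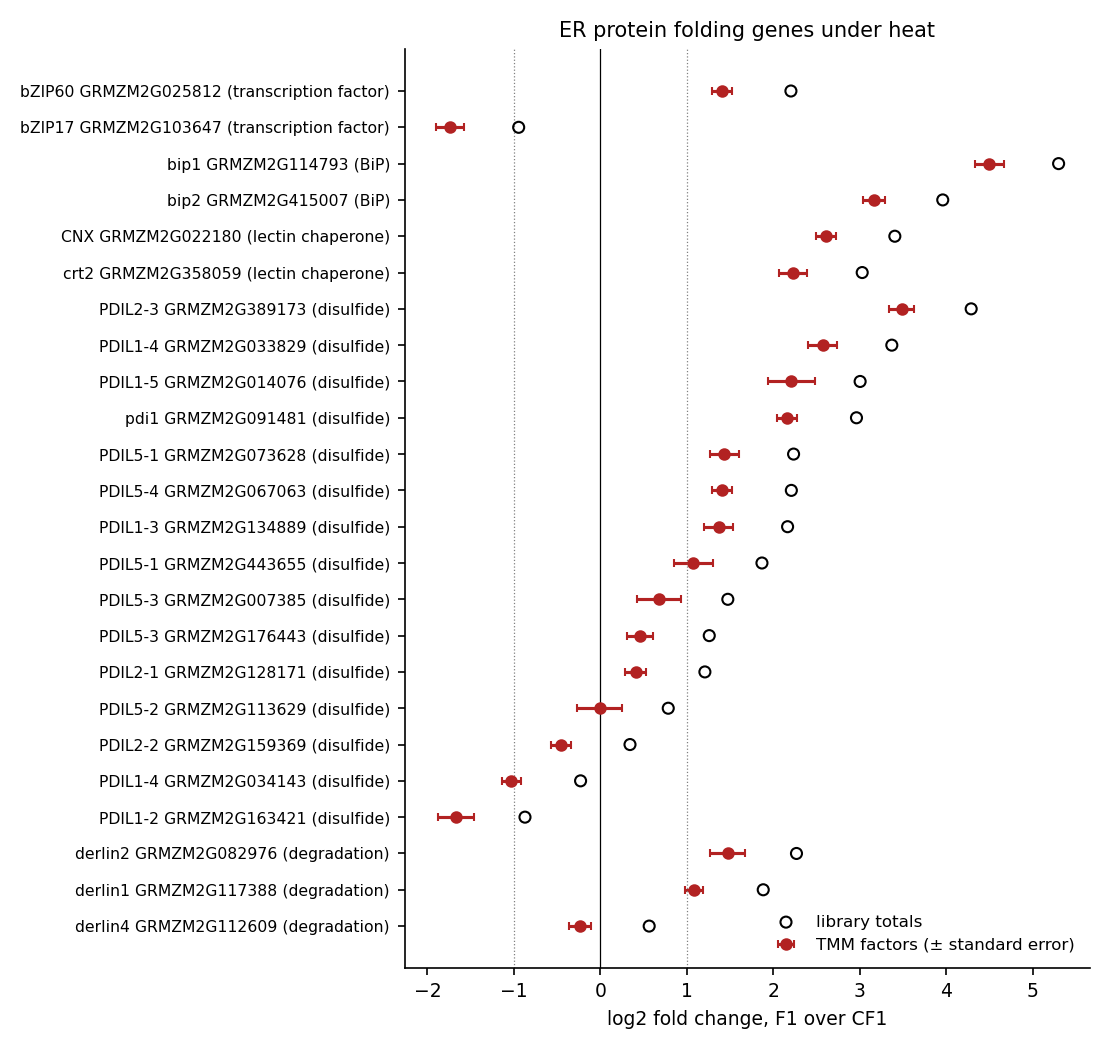
Log2 fold change of F1 over CF1 for the 24 tested genes of ER protein folding, by role, with TMM factors (red, bars are standard errors) and with library totals (open circles). Dotted lines mark a fold change of 2 in either direction, past which 15 genes lie to the right and 3 to the left with TMM factors.

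The genes with the most similar profiles were sought among 5262 other tested genes with a RefSeq name, by the root mean square difference of mean-centred log2(TMM-scaled FPKM + 1) over the 6 libraries. This measure compresses the changes of low transcripts, and with 2 groups it mainly reflects the size of the step between them. Nearest to bZIP60 were FatB (GRMZM5G829544, 0.05), which encodes a plastid acyl-ACP thioesterase, the disulfide isomerase PDIL1-5 (GRMZM2G014076, 0.06) and GRMZM2G425736 (0.06). Nearest to bip1 were rf2c (GRMZM2G071021, 0.09), an aldehyde dehydrogenase gene, the pyruvate decarboxylase gene pdc2 (GRMZM2G038821, 0.21) and the Rubisco activase gene rca3 (GRMZM2G162282, 0.24). For bip2 they were the D-type cyclin gene cycD2 (GRMZM2G075117, 0.05), GRMZM2G122935 (0.07) and GRMZM2G180971 (0.07). For pdi1 they were GRMZM2G011858 (0.05), GRMZM2G114337 (0.07) and ARF16 (GRMZM2G028980, 0.08), an auxin response factor gene. Of these 12 genes, PDIL1-5 alone is on the ER protein folding list. It rose with a log2 fold change of 2.21 ± 0.27 (SE), with an adjusted p of 4.50e-05 by edgeR's quasi-likelihood test, with an FPKM of 3.94 to 4.93 in F1 and 0.35 to 0.71 in CF1. The fitted log2 fold change of PDIL1-5 exceeded the 1.41 of bZIP60. Its CF1 values lay below the 1 added before the log, where the measure compresses changes.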

How the data were processed

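Poly(A) RNA of the third leaf was sequenced as paired reads. The authors trimmed and filtered the reads, aligned them to maize B73 RefGen_v3 with HISAT2 2.0.1 and deposited raw counts per gene from HTSeq 0.6.1, with FPKM values and exonic lengths. Dividing counts by length and library total returned the deposited FPKM. Columns were matched to samples by name, and 24 per-sample columns that matched no label were not used. Groups come from the sample titles.

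Genes reaching a mean FPKM of 1 in F1 or in CF1 were tested across all genes with edgeR 4.0.16 (glmQLFit, glmQLFTest, TMM factors, Benjamini-Hochberg adjustment) in R 4.3.3. Standard errors are the log2 fold change divided by the square root of F. The fit was checked on simulated counts in which few genes changed, equally many up and down. That check does not cover the scaling difference between the groups. Single values per library were compared with SciPy 1.17.1 by exact permutation tests. The p-values of the fits set the group difference against the spread between 3 biological replicates, with dispersions moderated across genes. The permutation p-values cannot fall below 0.1 with 3 libraries per group. Alternatives were DESeq2 1.42.0, limma 3.58.1 on log2(TMM-scaled FPKM + 1), other scalings, no filter, a replicate block and each library left out.

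The 4 genes and the list were chosen with earlier results of these data known. The list was planned on gene descriptions, but the table used (Zm-B73-REFERENCE-NAM-5.0, names only, 18908 IDs matched) gives symbols and synonyms, so it was matched on those after the file was seen. From it were named, per role, the 2 highest and 2 lowest log2 fold changes, or all where a role has at most 4 genes, and for each of the 4 genes the 3 nearest profiles. Promoter and protein sequences were not analysed here.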

Additional observations from a re-analysis of the deposited data

How the results depend on the processing

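Each of the 4 genes was called higher in F1 under the 12 other settings chosen at the outset, with log2 fold changes of 1.32 to 2.20 for GRMZM2G025812, 4.39 to 5.30 for GRMZM2G114793, 2.97 to 3.96 for GRMZM2G415007 and 2.10 to 2.96 for GRMZM2G091481. The adjusted p was at most 5.39e-05 in these fits. A stricter fold change of 4, chosen after seeing the data, left 3 of the 4 genes and 3865 in place of 9065 of all tested genes. DESeq2 called 8989 genes and limma 6909. With the replicate number as a block, 8948 genes, 18 of the list and all 4 genes were called. Numbers do not pair the libraries: deviations of same-numbered libraries correlated by 0.03, -0.02 and 0.02 across genes, and not every library correlated best with its own number. Leaving out each library in turn gave 8807 to 9113 genes, and 17 or 18 of the list. PDIL5-1 (GRMZM2G443655) lost its call without CF1 replicate 3, with a log2 fold change of 0.88 against 1.07.

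The direction reversed for 3 list genes that were not called: with library totals, the log2 fold change was 0.79 for GRMZM2G113629, 0.34 for GRMZM2G159369 and 0.56 for GRMZM2G112609, and that of GRMZM2G113629 was 0.0223 without the filter and -0.17 to 0.12 with a library left out. With library totals, 18 list genes were called, all higher. The patterns first written for gene descriptions matched 4 tested genes, bZIP17 and the tested derlins, and none of the genes examined. Of those matched, 3 were called, 2 higher and 1 lower, so the list counts rest on the patterns written later. Low counts in CF1 limit the split between bip1 and bip2.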

Other observations

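Within F1, the libraries did not rank alike over the ER genes, an observation made after the values were seen and not tested. F1 replicate 2 had the lowest FPKM of bip1 (311, against 360.0 and 406) but the highest of bZIP17 (70.8, against 51.5 and 51.4), of PDIL5-1 (GRMZM2G073628; 77.7, against 57.2 and 57.8) and of PDIL2-1 (GRMZM2G128171; 50.7, against 40.0 and 39.7). F1 replicate 3 had the highest FPKM of bip1 and of crt2 (131, against 98.8 and 98.6). PDIL2-1, the most abundant single PDI gene ID in CF1 (FPKM 17.7 to 20.3), was not called, its log2 fold change being 0.41 ± 0.12 (SE), and with library totals was called at 1.21. PDIL2-1 and PDIL5-1 lie outside the rule for named genes and were chosen after their values were seen.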
